A study of Mus musculus with 2 samples.

Results

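Interferon-responsive microglia are brain-resident macrophages in which genes induced by interferon are unusually abundant. They were taken here as microglia in which 7 such genes (Ifit2, Ifit3, Isg15, Oasl2, Rtp4, Ifi204 and Slfn5) together made up at least 0.1% of the cell's unique molecular identifiers (UMIs, the counted RNA molecules). A barcode first had to hold at least 2000 UMIs, at most 10% of them mitochondrial. At least 0.2% had to come from the microglial genes Tmem119, P2ry12, Siglech, Gpr34 and Sall1. Under 0.1% was allowed from each of 3 sets, of border macrophages (Mrc1, F13a1, Cd163, Ms4a7), of endothelium (Cldn5, Flt1) and of disease-associated microglia (Spp1, Lpl, Cst7, Itgax, Gpnmb, Fabp5, Lgals3). The rule found 591 cells among the 37387 barcodes of both libraries, 74 of 18228 in the library labelled WT and 517 of 19159 in the library labelled KO. Since these cells were chosen by their measured UMIs of the genes above, their levels of the 7 genes, and the comparison of them with other microglia, are descriptions and carry no test.

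The study held 1 single-cell library of wild-type mice (WT) and 1 of CD200R1-/- mice (KO), which lack an inhibitory receptor of myeloid cells. All were untreated C57BL/6J mice aged 18 months, and how many animals each library pooled is not given in the sources used here. The brains were perfused with PBS and dissociated with a commercial kit, CD11b-positive cells were kept on magnetic particles, and 3′ libraries were made with the 10x Chromium v3.1 chemistry. With 1 library per genotype no difference between genotypes could be tested, and the genotype cannot be told apart from the animals, the dissociation or the library. Cd200r1 was counted in both labels, at 21.7 CPM (UMIs of the gene per 1000000 UMIs of the group, 95% interval 12.2 to 35.8) in the WT interferon-responsive cells and 25.4 (21.2 to 30.3) in the KO cells. A 3′ tag outside the deleted part of a gene would still be counted, so this did not check the genotype.

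Type I interferons are secreted proteins that bind a receptor of IFNAR1 and IFNAR2 on the cell surface. The receptor's kinases activate STAT2, which acts with IRF9 in a complex that binds a DNA element called the interferon-stimulated response element (ISRE) near many target genes. The targets include antiviral effectors, sensors of foreign nucleic acid, antigen presentation genes and inhibitors that shut the pathway down, and microglia with this programme are known from the aged and the diseased brain.

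The libraries held 127429919 (WT) and 131196245 (KO) UMIs in all, and 10091 and 11573 barcodes passed the UMI and mitochondrial limits. Of these, 3799 and 4674 met the microglial part of the rule. The interferon-responsive cells were 1.95% of the WT microglia (exact Clopper-Pearson 95% interval 1.53 to 2.44) and 11.1% of the KO microglia (10.2 to 12.0). Intervals here and below cover counting error only, not the spread between mice. They held 691008 UMIs (median 7862 per cell) in WT and 4994747 (6559 per cell) in KO, while the other microglia, 3725 and 4157 cells under the 0.1% cut, held 43265688 (8286 per cell) and 45576891 (7125 per cell). In KO their share fell with depth, from 13.2% of cells with 2000 to under 4000 UMIs to 8.38% of those with 16000 or more. In WT it was 2.78% (13 cells) and 1.55% (10 cells) at the same ends, but was not ordered between them (1.83%, then 1.97%). The 2 libraries had 103 barcode sequences in common, 1 carried by a WT and 4 by KO interferon-responsive cells, and no such cell was found in both.

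Microglial genes that the rule did not use were high in these cells. The fractalkine receptor Cx3cr1 stood at 2547 CPM in other and 2308 CPM in interferon-responsive WT microglia and at 2796 and 2613 CPM in KO, with a UMI in 71 of 74 and 512 of 517 interferon-responsive cells. Olfml3, a secreted protein typical of microglia, was at 654 and 612 CPM in WT and 782 and 736 CPM in KO. The 5 identity genes, which the rule required, together made up a median of 0.462% of UMIs per cell in WT and 0.495% in KO, against 0.561% and 0.539% in the other microglia. T cell markers were near 0, with 1 UMI of 10 marker genes over all WT cells and 31 over all KO cells. Neutrophil markers were carried by few cells: they reached 0.2% of UMIs in 2 of 74 and 11 of 517, and their median per cell was 0.0263% and 0.0304%, against 0.0318% and 0.0309% in other microglia. Summed over cells these 8 markers stood at 692 CPM in WT and 3136 CPM in KO, against 1529 and 997 CPM in other microglia, and the granule gene Ltf was at 0 in the WT cells. Monocyte markers summed to 166 and 163 CPM against 33.6 CPM in the other microglia of either library, with a median of 0 per cell in all 4 groups. Ttr led the choroid plexus markers, whose median was 0.229% and 0.425% per cell against 0.228% and 0.370% in other microglia. Ependymal markers were at 255 CPM in the WT interferon-responsive cells against 40.5 CPM in other WT microglia, with 7 of the 8 genes at least 25% higher on a scale of CPM plus 10 and 1 cell at 0.2% of UMIs, and at 79.1 against 73.7 CPM in KO. Endothelial markers were at 524 against 526 CPM in WT and 721 against 576 CPM in KO, where they reached 0.2% of UMIs in 4.84% of the interferon-responsive cells and 1.78% of the others. The part of these cells in the results was not tested, except where values without them are given. Any of the other cell types' lists, choroid plexus aside, reached 0.2% of UMIs in 9 of 74 WT cells (12.2%) and 72 of 517 KO cells (13.9%), against 8.51% and 9.26% of other microglia.

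The cut fell within a continuous range. In the histogram of the defining score, 2116 of the 3725 other WT microglia had no UMI of the 7 genes, while only 578 of the 4157 other KO microglia had none. Close to the cut, 27 WT and 320 KO cells scored between 0.08% and 0.1%, and 19 and 192 between 0.1% and 0.12%. Just inside the cut the median cell held 7 (WT) or 8 (KO) UMIs of the 7 genes, and just outside 5 and 7. The class is therefore a range of a score.

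**Figure D1:**
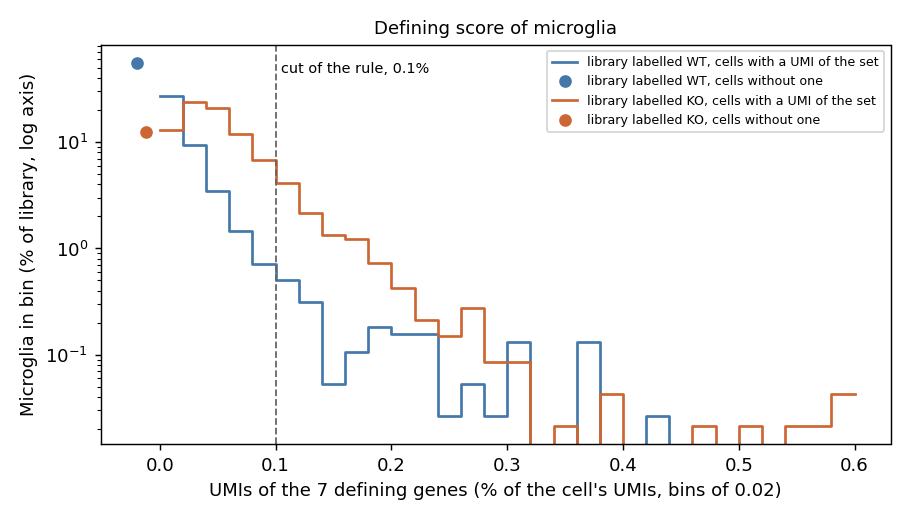
Share of microglia (y axis, % of the library's microglia, log axis) by the summed share of the 7 defining genes in each cell (x axis, % of UMIs, bins of 0.02, scores up to 0.6 shown), for the libraries labelled WT and KO. Points at the left are cells with no UMI of the set, 2116 in WT and 578 in KO, and no gap is seen at the 0.1% cut in either library.

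By choice the 7 defining genes were high in these cells, and the levels show how far from the other microglia they stood in each library. Isg15, a ubiquitin-like protein attached to other proteins, was at 12.0 CPM in other WT microglia and 298 CPM in the WT interferon-responsive cells, and at 52.4 and 223 CPM in the KO library. Ifit2, an antiviral protein that binds RNA, stood at 6.63 and 402 CPM in WT and 28.8 and 203 CPM in KO. Rtp4, a chaperone of receptors that also restrains viruses, went from 18.7 to 224 CPM in WT and from 119 to 258 CPM in KO. The remaining 4 ran from 11.5 to 25.6 CPM in other WT microglia and from 42.4 to 62.3 CPM in other KO microglia. The median cell of either library had a UMI of 5 of the 7 genes, and 6 WT cells (8.11%) and 40 KO cells (7.74%) had 2 or fewer, so most cells did not enter by 1 gene alone.

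Promoters of 7 genes are shown to give the letters of the response element. The windows are the 250 bases before the start site, from RefSeq on GRCm38.p6, 5′ to 3′ on the gene's strand. Capitals mark every match to the core of the ISRE, spelled GAAA, any 2 bases and GAAA again, or to its reverse complement, TTTC, any 2 bases and TTTC. Overlapping matches run together, as in Isg15, where 3 matches start 78, 72 and 66 bases before the start site. Isg15 and Ifit3 are from the defining set, Rsad2, Ifit1, Cxcl10 and Ccl12 from the leading genes outside it, and Npl is shown as a gene that differed between the libraries in every class.

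Isg15, chr4:156200819-156201068, minus strand: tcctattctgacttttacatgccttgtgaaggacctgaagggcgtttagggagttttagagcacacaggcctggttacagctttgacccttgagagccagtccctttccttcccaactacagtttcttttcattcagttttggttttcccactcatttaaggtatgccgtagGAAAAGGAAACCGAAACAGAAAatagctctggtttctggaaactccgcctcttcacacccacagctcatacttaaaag
Ifit3, chr19:34583279-34583528, plus strand: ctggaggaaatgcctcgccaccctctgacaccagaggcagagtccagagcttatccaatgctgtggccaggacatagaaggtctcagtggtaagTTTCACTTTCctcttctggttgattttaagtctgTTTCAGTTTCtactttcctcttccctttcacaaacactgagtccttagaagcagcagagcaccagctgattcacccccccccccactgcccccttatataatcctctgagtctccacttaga
Rsad2, chr12:26456453-26456702, minus strand: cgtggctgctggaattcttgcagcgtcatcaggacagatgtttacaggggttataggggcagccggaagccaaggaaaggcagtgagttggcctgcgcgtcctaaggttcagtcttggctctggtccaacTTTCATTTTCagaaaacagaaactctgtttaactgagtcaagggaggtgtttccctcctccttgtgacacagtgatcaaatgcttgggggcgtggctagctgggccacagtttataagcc
Ifit1, chr19:34640639-34640888, plus strand: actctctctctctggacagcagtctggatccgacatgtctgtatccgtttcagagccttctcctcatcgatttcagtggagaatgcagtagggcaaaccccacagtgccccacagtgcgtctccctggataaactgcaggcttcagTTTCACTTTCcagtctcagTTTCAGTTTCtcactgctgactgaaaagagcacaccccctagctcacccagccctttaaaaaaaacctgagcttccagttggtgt
Cxcl10, chr5:92348890-92349139, minus strand: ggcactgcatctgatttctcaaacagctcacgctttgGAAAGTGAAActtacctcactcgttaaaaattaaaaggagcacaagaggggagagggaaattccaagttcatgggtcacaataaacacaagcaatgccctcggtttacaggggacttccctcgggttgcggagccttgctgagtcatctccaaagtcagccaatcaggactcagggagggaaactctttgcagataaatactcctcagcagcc
Ccl12, chr11:82101595-82101844, plus strand: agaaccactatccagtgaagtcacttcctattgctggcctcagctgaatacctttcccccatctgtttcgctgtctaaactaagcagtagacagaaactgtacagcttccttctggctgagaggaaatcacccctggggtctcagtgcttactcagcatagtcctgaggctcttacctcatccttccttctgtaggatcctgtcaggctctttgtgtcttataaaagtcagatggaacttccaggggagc
Npl, chr1:153549715-153549964, minus strand: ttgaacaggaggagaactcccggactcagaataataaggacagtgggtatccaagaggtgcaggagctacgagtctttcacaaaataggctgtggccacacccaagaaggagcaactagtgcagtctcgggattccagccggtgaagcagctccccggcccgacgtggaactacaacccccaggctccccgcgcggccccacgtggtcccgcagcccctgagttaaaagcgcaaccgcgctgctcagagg

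In windows that also took in the first 50 bases after the start, 943 of 27025 genes (3.49%) had a match. Of the 5 defining genes with a window, Ifit3, Isg15 and Slfn5 had 1. Among the 15 leading genes outside the set described next, 8 of the 14 with a window had one: Cxcl10, Ifi206, Ifi207, Ifi211, Ifi213, Ifit1, Ifit3b and Rsad2. Of the interferon effectors outside the defining set, 26 of the 59 with a window matched (44.1%), against 1 of 21 homeostatic microglial genes and 0 of 7 genes of MHC class II. In Ccl12, Oasl2 and Npl these letters were not in the window. A match is a string of letters in a promoter and was not tested as a binding site.

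Outside the defining set, the genes furthest up in these cells included antiviral effectors, members of a family of DNA-binding proteins and 3 chemokines. UMIs were summed over the interferon-responsive cells and over the other microglia of the same library, and ratios were taken as log2 of CPM plus 10, a scale that understates differences of low genes. On it, 199 of 15383 genes outside the set and with at least 20 UMIs were at least 2-fold higher in the WT cells (1.29%) and 25 lower (0.163%). In KO, 55 of 15733 were higher (0.35%) and 4 lower (0.0254%). The 15 genes with the highest lesser ratio of the 2 libraries were, in order, Cxcl10, Rsad2, Ccl12, Ifit3b, Oasl1, Cxcl2, Ifi211, Ifi207, Ifi206, Ifit1, Gpr141, Ms4a4c, H2-Aa, Ifi213 and Cd74. Together with the defining genes they lay partly in gene clusters: 5 on chromosome 1 (the Ifi200 family) and 5 on chromosome 19, among them 4 Ifit genes. Reads of near-identical copies (Ifit3 and Ifit3b, and members of the Ifi200, Oasl and Slfn families) may be split uncertainly between them.

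**Figure D2:**
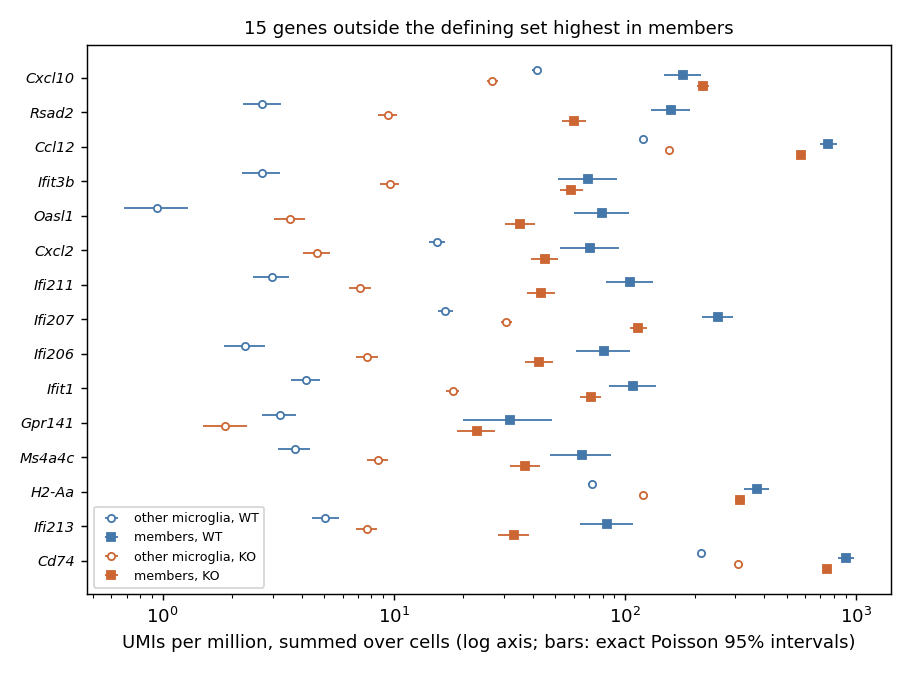
Level in CPM (x axis, log axis) of the 15 genes outside the defining set that were highest in interferon-responsive microglia, summed over cells, with exact Poisson 95% intervals. Filled squares are interferon-responsive cells and open circles other microglia, for the libraries labelled WT and KO. Squares lie to the right of the circles of the same library for all 15 genes, and open circles of KO lie to the right of those of WT for 12 of them, the exceptions being Cxcl10, Cxcl2 and Gpr141.

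The antiviral effectors differed in how widely they were spread over the cells. Rsad2 (viperin, chr12:26442746-26456452), an enzyme that makes a chain-terminating nucleotide, was at 2.70 CPM (95% interval 2.24 to 3.24) in other WT microglia and 158 CPM (130 to 190) in the WT interferon-responsive cells, 58.3-fold (44.5 to 76.4) apart. In KO it stood at 9.44 CPM (8.56 to 10.4) and 60.3 CPM (53.7 to 67.5), 6.39-fold (5.49 to 7.42) apart. It was seen in 23 of 74 WT and 111 of 517 KO cells, and 1 WT cell held 32.1% of the WT UMIs. Ifitm3 (chr7:141009586-141010770), a membrane protein that blocks virus entry, was more widely spread, with a UMI in 59 of 74 and 441 of 517 cells. Its level was 91.2 CPM in other and 741 CPM in interferon-responsive WT microglia, and 276 and 572 CPM in KO. With every cell thinned to 2000 UMIs, 56.8% of the WT interferon-responsive cells had an Ifitm3 UMI against 14.8% of the other microglia, and 50.9% against 38.1% in KO. The same gene thus separated the classes in WT far more than in KO, where it was already common among the other cells.

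Over the list of 72 interferon effectors beside the defining set, 68 were measured in the WT comparison and 66 were higher by at least 25% on the log scale above, where 11.7% of all genes were that much higher and 11.7% lower by the same factor. This factor is used for all lists below. Their median log2 ratio was 1.57, against -0.04 over all genes, and 47 were at least 2-fold higher. In KO 55 of 69 were at least 25% higher, against 2.53% of all genes (0.591% lower), with a median of 0.55 and 8 at least 2-fold higher. None of the effectors was lower by that factor in either library. Summed, the effectors made up 3446 CPM of other and 11230 CPM of interferon-responsive WT microglia, and 6646 and 9720 CPM of the KO cells. On this sum the interferon-responsive cells of the 2 libraries were closer to each other than the other microglia were. The same score cut was applied to both libraries, and the effectors rose with that score. The closeness therefore cannot be told apart from the effect of the rule.

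The Ifi200 genes, whose proteins bind DNA in the nucleus or cytosol, were higher in these cells by a median log2 of 2.14 in WT and 0.93 in KO, 9 of 11 by at least 25% in each. Ifi207 stood at 16.7 and 252 CPM in WT (15.1-fold, 12.7 to 17.8) and at 30.7 and 114 CPM in KO (3.73-fold, 3.38 to 4.11). The guanylate-binding and immunity-related GTPases, which attack the vacuoles of intracellular pathogens, had medians of 1.13 and 0.45, with 16 of 16 and 12 of 17 at least 25% higher. Iigp1 led them in both libraries, at 3.98 and 59.3 CPM in WT and 5.27 and 24.8 CPM in KO.

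Sensors of nucleic acid were higher in part. Zbp1, a sensor of left-handed nucleic acid that can start necroptosis, stood at 3.72 and 79.6 CPM in WT and 15.8 and 49.9 CPM in KO. Ifih1, the cytosolic sensor of long double-stranded RNA, stood at 29.1 and 164 CPM in WT and 48.1 and 75.9 CPM in KO. The endosomal receptor Tlr7 was near level, at 222 and 239 CPM in WT and 183 and 192 CPM in KO, and Tmem173 (STING) was at 140 and 116 CPM in WT and 140 and 132 CPM in KO. Of 15 sensors, 9 were at least 25% higher in WT and 6 in KO, and none lower.

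The components that receive and relay the signal split by step. The receptor chains stood close in both classes. Ifnar1 was at 39.0 and 44.9 CPM in WT (1.15-fold, 0.779 to 1.64) and 38.6 and 49.1 CPM in KO (1.27-fold, 1.11 to 1.45), and Ifnar2 at 243 and 223 CPM in WT and 255 and 258 CPM in KO. The kinases Jak1 and Tyk2 had log2 ratios between -0.07 and 0.18. The factors that are themselves targets of interferon were higher. Irf7 (chr7:141262706-141266481), the factor that amplifies interferon production, was at 6.66 and 156 CPM in WT (23.5-fold, 18.6 to 29.4) and 28.7 and 75.7 CPM in KO (2.64-fold, 2.35 to 2.96). Stat2 was at 21.2 and 139 CPM in WT and 48.3 and 88.1 CPM in KO. Irf9 stood at 29.8 and 50.7 CPM in WT and at 66.9 and 63.9 CPM in KO, so in KO it was no higher in the interferon-responsive cells than around them. Stat3, Irf8 and Irf1 had log2 ratios between -0.13 and 0.38 in both libraries.

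Among the feedback inhibitors, Usp18, which strips ISG15 from proteins and blocks IFNAR2, stood at 8.09 and 111 CPM in WT (13.8-fold, 10.6 to 17.7) and at 31.2 and 82.3 CPM in KO (2.64-fold, 2.36 to 2.94). Socs1, an inhibitor of the Janus kinases, was low in all groups (3.14 and 8.68 CPM in WT, 3.95 and 9.01 CPM in KO). Socs3, which acts on the interleukin-6 receptor, was lower in the WT interferon-responsive cells (81.0 against 133 CPM) and near level in KO (126 against 132 CPM). The inhibitors were thus mixed, as 7 of 13 measured were at least 25% higher and 1 lower by that factor in WT, and 5 of 14 higher in KO.

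Chemokines were carried unevenly. Of 20 measured in WT, 9 were at least 25% higher and 2 lower (median log2 0.05), and of 19 in KO 9 were higher and none lower (0.21). With the 2 genes at 0 in 1 of the WT groups set to a floor of 3 UMIs, the WT median was 0.23. Ccl12 (chr11:82101845-82103400), a ligand of CCR2 that draws monocytes, was found in 55 of 74 WT and 325 of 517 KO cells, and stood at 119 and 758 CPM in WT (6.37-fold, 5.81 to 6.97) and 155 and 575 CPM in KO (3.70-fold, 3.55 to 3.87). Cxcl10 (chr5:92346638-92348889), a ligand of CXCR3 that draws T cells, was found in only 10 WT and 73 KO cells. It was at 41.5 CPM in other and 178 CPM in interferon-responsive WT microglia, where 1 cell held 45.5% of the UMIs, and at 26.7 and 217 CPM in KO, where the highest cell held 11.9%. After thinning, 8.11% and 7.74% of the cells had a Cxcl10 UMI, against 3.33% and 3.18% of other microglia. Ccl12 was thus detected in most of the cells and Cxcl10 in few. The UMIs of Ccl12 were less evenly spread than its detection. In KO, 781 of them lay in the 11 cells scoring 0.4% or more, against 1636 in the 445 cells between 0.1% and 0.2%. Cxcl2, a ligand for neutrophils, rested on 1 cell in WT, which held 44 of its 49 UMIs, and its log2 ratio there went from 1.67 to -0.45 without that cell. The same gene had 225 UMIs in 27 KO cells and a log2 ratio of 1.91, 1.66 without the highest. Ccl3, a chemokine of inflamed tissue, was at 977 and 955 CPM in WT and 535 and 618 CPM in KO. Ccl4, a relative of it, was at 1729 and 2218 CPM in WT and 1082 and 1367 CPM in KO.

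Antigen presentation divided into a broad and a narrow part. MHC class I genes, which show peptides of the cell's own proteins, were higher as a list, 16 of 21 by at least 25% in WT (median log2 0.60) and 5 of 21 in KO (0.23). Nlrc5, the activator of class I genes, was at 11.7 and 103 CPM in WT and 27.1 and 60.7 CPM in KO, and H2-K1 at 384 and 722 CPM in WT and 473 and 588 CPM in KO. B2m, the light chain of class I, was detected in 74 of 74 and 516 of 517 cells, at 1782 and 2530 CPM in WT and 2211 and 2416 CPM in KO. The class I genes were spread over most cells. The class II genes, which show peptides of ingested proteins to CD4 T cells, were held by few cells instead.

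H2-Aa, a class II chain, was at 71.7 and 372 CPM in WT and 120 and 316 CPM in KO, yet it was found in only 13 of 74 and 95 of 517 cells, and 1 WT cell held 48.6% of the WT UMIs. Cd74, the invariant chain that loads class II, was at 212 and 905 CPM in WT and 307 and 747 CPM in KO. The 8 WT cells and 52 KO cells with most class II UMIs held 83.5% and 82.3% of all class II UMIs of their group, while for class I the same numbers of cells held 34.1% and 34.0%. The median cell was near level, with 0.0489% of UMIs from class II genes against 0.0391% in other WT microglia, and 0.0459% against 0.0454% in KO. Cells with at least 0.5% of UMIs from H2-Aa, H2-Ab1, H2-Eb1 and Cd74 were 4 of 74 (5.41%, exact interval 1.49 to 13.3) against 1.29% of other WT microglia, and 34 of 517 (6.58%, 4.60 to 9.07) against 2.00% in KO. Their median identity share was 0.255% in WT and 0.365% in KO, below the whole group's. With the identity minimum raised to 0.4%, the log2 ratio of H2-Aa went from 2.23 to 0.02 in WT and from 1.33 to 0.77 in KO, and that of Cd74 from 2.04 to 0.02 and from 1.26 to 0.70. Whether these were microglia or other myeloid cells was not tested.

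Genes of resting microglia were lower by little. Over 30 homeostatic genes, which include the 5 of the rule, the median log2 ratio was -0.19 in WT, with 7 lower and 1 higher by the same factor, and -0.09 in KO, with none past that size. Fcrls, a receptor-like protein typical of microglia, was at 682 and 401 CPM in WT (0.588-fold, 0.520 to 0.662) and 724 and 623 CPM in KO (0.860-fold, 0.829 to 0.892). Disease-associated genes, 7 of which the rule capped, had medians of -0.01 and 0.05. Among them Axl, a receptor for dying cells, was at 25.3 and 101 CPM in WT (4.0-fold, 3.09 to 5.10) and 30.0 and 47.1 CPM in KO (1.57-fold, 1.36 to 1.80), and Apoe at 3120 and 3048 CPM in WT and 3276 and 3813 CPM in KO. Lysosomal genes (0.03 and -0.02), oxidative phosphorylation (-0.01 and 0.02) and immediate-early and heat shock genes (0.06 and 0.06) had medians near 0 in both libraries. Of the 10 genes lowest in both (among them Tpm2, Trpm3, Lsamp, D7Ertd443e, Dgkb, Slc4a4, Bank1, Fabp7 and Klhl3), only Bank1 had over 50 UMIs in the WT interferon-responsive cells, at 165 and 78.2 CPM in WT (0.474-fold, 0.356 to 0.619) and 158 and 118 CPM in KO (0.743-fold, 0.681 to 0.808). Bank1 is a scaffold protein of B cell receptor signalling. With cells that carried other types' markers left out, the KO log2 ratios of Tpm2, Trpm3, Lsamp and Slc4a4 went from between -0.64 and -0.41 to between 0.00 and 0.08.

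**Figure D3:**
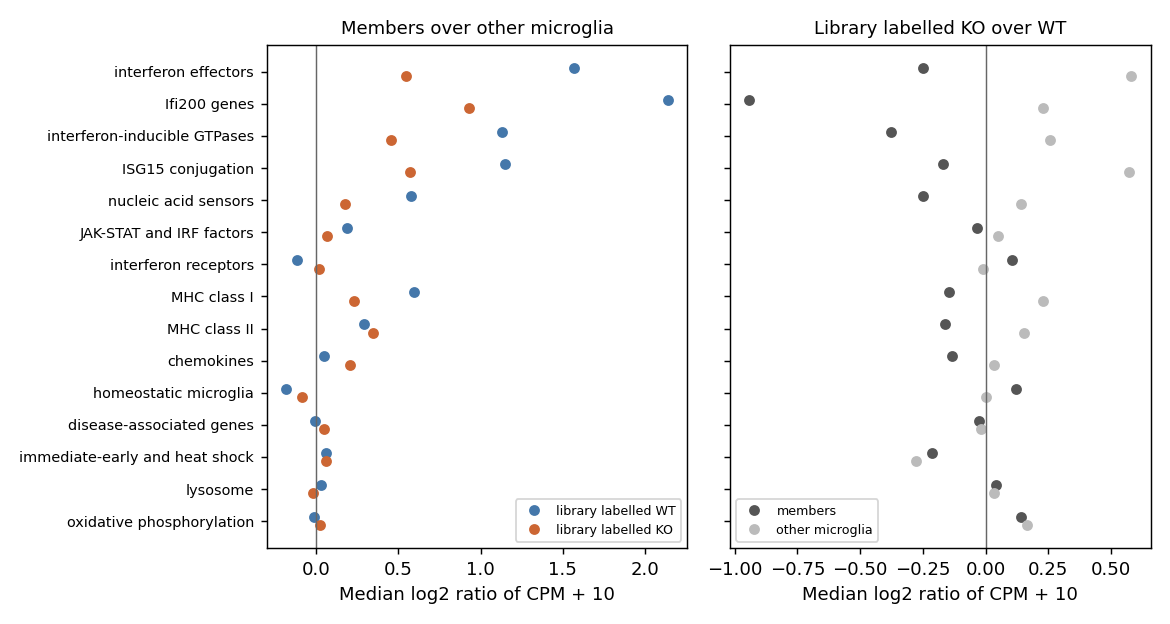
Median log2 ratio of CPM plus 10 over the genes of each list, the 7 defining genes left out. The left panel compares interferon-responsive microglia with other microglia in each library, and the right panel compares the library labelled KO with that labelled WT among interferon-responsive and among other microglia. For interferon effectors the values were 1.57 and 0.55 on the left, and -0.25 and 0.58 on the right, while the 5 lists drawn from homeostatic microglia downwards lay within 0.2 of 0 in the left panel.

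Between the libraries, the interferon-responsive cells and the cells around them differed in opposite directions for interferon genes. Among the other microglia, 52 of 69 effectors were at least 25% higher in KO and 1 lower, where 1.35% of all 16942 genes were higher and 1.5% lower, with a median log2 of 0.58. Among the interferon-responsive cells 1 was higher and 29 lower, where 15.2% of 11151 genes were higher and 13.8% lower, with a median of -0.25. At 2-fold, 42 genes were higher (0.377%) and 59 lower (0.529%) in the KO interferon-responsive cells, against 21 higher (0.124%) and 3 lower (0.0177%) in other microglia. Ifi27l2a, a small interferon-induced protein of mitochondria, was the effector furthest apart in the other microglia, at 118 CPM in WT and 584 CPM in KO, but was near level in the interferon-responsive cells at 776 and 884 CPM (1.14-fold, 1.042 to 1.249). Xaf1, a promoter of apoptosis, stood at 21.2 and 83.4 CPM in the other cells and 145 and 139 CPM in the interferon-responsive ones.

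The interferon-responsive cells of the 2 libraries also differed in their position along the score, which is itself made of interferon genes. Whether position accounts for the lower levels in KO was not tested. The median score was 0.176% in the WT and 0.135% in the KO interferon-responsive cells, and 30 of the 74 WT but 72 of the 517 KO cells scored 0.2% or more. Among cells between 0.1% and 0.2%, 44 in WT and 445 in KO, the median log2 ratio of the effectors, KO over WT, was 0.05. That of the Ifi200 genes was -0.10 instead of -0.94, and that of the GTPases 0.02 instead of -0.38. In those cells the other effectors made up a median of 0.849% of UMIs in WT and 0.869% in KO. Irf7 stood there at 78.3 CPM (53.5 to 111) in WT and 68.4 CPM (60.9 to 76.6) in KO, Rsad2 at 51.4 CPM (31.8 to 78.5) and 50.4 CPM (43.9 to 57.5), and Usp18 at 85.6 CPM (59.6 to 119) and 72.1 CPM (64.4 to 80.5), with overlapping counting intervals for all 3. In that range the 2 libraries' cells were thus close for these genes. Between 0.2% and 0.4% Usp18 was again close, at 108 CPM (70.8 to 159) in 26 WT cells and 126 CPM (97.6 to 160) in 61 KO cells. Rsad2 there was at 304 CPM (238.5 to 383) in WT and 111 CPM (84.4 to 143) in KO. Irf7 was at 200.1 CPM (147.5 to 265) in WT and the same 111 CPM in KO. Both stood higher in WT, with counting intervals that did not overlap. The Rsad2 value of that WT bin leaned on few cells, however: 1 cell held 22 of its 73 UMIs, and another held more. Its counting interval does not cover this, and the level without these cells was not tested.

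At a score of 0 the libraries lay apart, and less so just below the cut. In cells with no UMI of the defining set the effectors made up a median of 0.296% of UMIs in WT (quartiles 0.242 and 0.361) and 0.527% in KO (0.438 and 0.655), and with all cells thinned to 2000 UMIs 0.30% and 0.55%. Irf7 in those cells was at 2.72 CPM (2.00 to 3.62) in WT and 16.2 CPM (12.0 to 21.4) in KO. Ifitm3 was at 64.2 CPM (60.5 to 68.1) and 213 CPM (197 to 230). Between 0.05% and 0.1% the effector medians were 0.595% in WT and 0.730% in KO. Irf7 stood there at 41.7 and 40.0 CPM, and Ifitm3 at 330 and 347 CPM. Between 0.2% and 0.4% the order of the effector medians turned, with 1.48% in the 26 WT cells and 1.19% in the 61 KO cells. At 0.4% or more, in 4 and 11 cells, the medians were 2.26% and 2.09%, but 1.925% and 2.05% with all cells thinned to 2000 UMIs, which is the other order. The effectors thus spanned a wider range in WT, from a lower start.

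**Figure D4:**
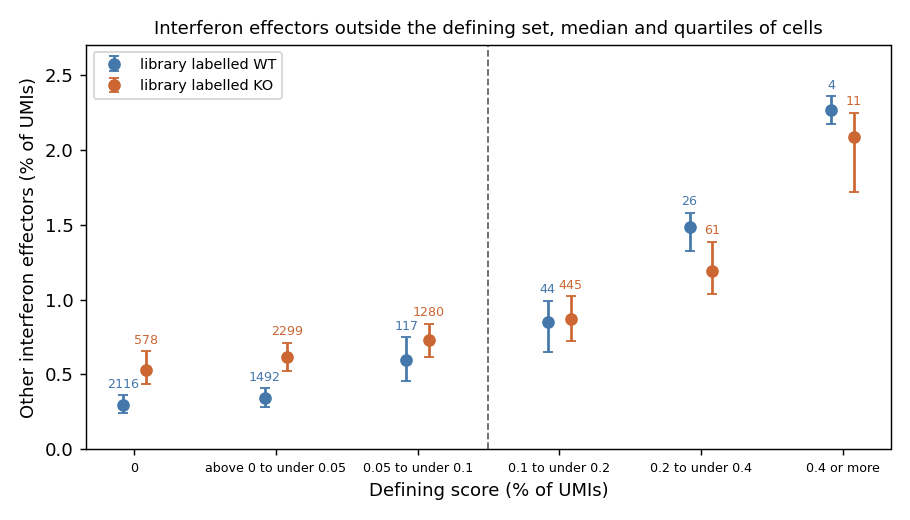
Share of UMIs from interferon effectors outside the defining set (y axis, %, median of cells with quartiles as bars) by defining score (x axis, % of UMIs), for the libraries labelled WT and KO. Numbers give the cells of each bin, and the dashed line is the cut of the rule. KO cells lie above WT cells at a score of 0 (0.527% and 0.296%), and the medians lie close between 0.1% and 0.2% (0.869% and 0.849%).

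Ccl12 and Cxcl10 were highest at the top of the same scale in both libraries. The other chemokines followed along it, Ccl3, Ccl4 and Cxcl2, were not so in both. Ccl12 in KO was at 99.2 CPM at a score of 0, 374 CPM between 0.1% and 0.2%, 855 CPM between 0.2% and 0.4%, and 8361 CPM in the 11 cells at 0.4% or more. In WT it stood at 111, 504, 888 and 2479 CPM in the same bins. Cxcl10 was near level below the cut in KO (33.1 CPM at a score of 0 and 29.9 CPM between 0.05% and 0.1%), then stood at 123, 502 and 2955 CPM in the 3 bins above it. In WT, Cxcl10 was at 28.2 CPM at a score of 0, 86.5 CPM between 0.05% and 0.1%, 26.9 CPM (11 UMIs) between 0.1% and 0.2%, 234 CPM and 1322 CPM, so it was not ordered there. Ccl3 was at 2623 CPM at 0.4% or more in KO against 480 CPM at a score of 0, but at 307 against 962 CPM in WT. In KO, 1 of the 11 cells at 0.4% or more held 138 of the 245 Ccl3 UMIs of that bin. The same cell held 129 of its 276 Cxcl10 UMIs. Cxcl2 had no UMI at 0.4% or more in either library.

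Several genes outside the interferon programme differed between the libraries' interferon-responsive cells. Npl, an enzyme that breaks down sialic acid, was higher in KO in every class: 69.5 CPM (51.2 to 92.1) in WT and 210 CPM (198 to 223) in KO interferon-responsive cells, 3.03-fold (2.27 to 4.13), and 79.4 and 222 CPM in other microglia, 2.80-fold (2.69 to 2.91). It was seen in 28 of 74 and 384 of 517 cells, and it was level along the score, at 228 CPM at a score of 0 and 212 CPM between 0.1% and 0.2% in KO. Slc15a2, a peptide transporter, went the other way in both, at 18.8 and 4.61 CPM in interferon-responsive and 15.4 and 2.28 CPM in other microglia. The inducible heat shock genes Hspa1a and Hspa1b were at 337 and 331 CPM in the WT interferon-responsive cells against 175 and 198 CPM in other WT microglia. In KO they were at 123 CPM each against 118 and 112 CPM.

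Some of the genes furthest up in KO came from cells with other types' markers. The 10 genes furthest up in KO were Lcn2, Wfdc21, Cstdc4, Npl, Fbxl7, Aamdc, Crispld2, Hp, Mmp9 and Nhs. Lcn2 (an iron-binding protein of neutrophil granules), Wfdc21, Cstdc4, Crispld2, Hp (haptoglobin) and Mmp9 (a gelatinase stored in neutrophils) each came from 4 to 20 KO cells, in a group whose neutrophil markers were 3136 CPM against 692 CPM in WT. Without cells carrying other types' markers their log2 ratios went from between 1.28 and 2.64 to between -0.15 and 0.13. Crispld2, Cstdc4 and Mmp9 had no UMI in the WT interferon-responsive cells, and against a floor of 3 UMIs summed over those cells (4.34 CPM) they were at least 3.37-fold, 4.10-fold and 3.27-fold higher in KO. Fbxl7, Aamdc and Nhs had 1 to 9 UMIs in the WT cells.

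Of the genes furthest down in KO, 5 of 10 depended on their highest cell. The 10 genes furthest down in KO were Cd300lf, Ctla2a, Myo10, Cxcl13, Cdkn1a, Sema3c, Hspa1a, Hspa1b, Ezh2 and Samd9l. One WT cell held 83 of the 88 UMIs of Cxcl13 (a chemokine for B cells), 29 of 34 of Myo10 and 25 of 29 of Sema3c, and without each gene's highest cell their log2 ratios went from -1.73, -1.73 and -1.41 to 0.80, 0.01 and 0.14. Ctla2a went from -1.78 to -0.24 and Ezh2 from -1.31 to -0.12. Cd300lf, an inhibitory receptor of myeloid cells, was found in 17 of 74 WT and 46 of 517 KO cells, at 75.3 CPM (56.2 to 98.7) and 14.0 CPM (10.9 to 17.7), and kept a log2 ratio of -1.32 without its highest cells. Samd9l, a restriction factor from the list of interferon effectors, was at 107 and 37.4 CPM and kept -1.09. Cdkn1a, an inhibitor of the cell cycle, went from -1.41 to -0.74, and Hspa1a and Hspa1b kept -1.16 each.

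Messages for the interferons themselves were almost absent. Of 21 interferon genes in the files, 3 had a UMI in these cells: Ifnb1, Ifng (1 UMI) and Ifna2 (1 UMI). A count of 0 allows up to 4.34 CPM in the WT and 0.601 CPM in the KO interferon-responsive cells. Ifnb1, the interferon beta that many cells can make, had 57 UMIs in 4 KO cells, 52 of them in 1 cell, and 1 UMI in WT. The cell with 52 held 21490 UMIs, a defining score of 0.475% and an identity share of 0.377%, with 129 UMIs of Cxcl10, 79 of Ccl5 and 27 of Il12b (a subunit of interleukin-12). Over all barcodes Ifnb1 had 8 UMIs in 4 WT barcodes and 70 UMIs in 11 KO barcodes. That cell alone therefore held most of the Ifnb1 counted in the series.

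Microglia with a disease-associated share of 0.1% or more, which the rule kept out, are a neighbouring class. They were 101 in WT and 97 in KO, of which 3 (2.97%, 0.617 to 8.44) and 11 (11.3%, 5.80 to 19.4) also reached the 0.1% score. The rest, 98 and 86 cells, had effectors at 3534 CPM in WT and 6693 CPM in KO, close to the other microglia of the same library (3446 and 6646 CPM) and below the interferon-responsive cells (11230 and 9720 CPM). Their lysosomal genes were at 36712 and 35105 CPM, against 28136 and 29520 CPM in the interferon-responsive cells. Their MHC class I genes were at 5108 CPM in WT and 5772 CPM in KO. The interferon-responsive cells had 6224 and 5595 CPM of class I, and the other microglia 3926 and 4838 CPM. Raised class I was thus not particular to the interferon-responsive cells. Class II was at 1584 and 934 CPM in the disease-associated cells, against 2486 and 2073 CPM in the interferon-responsive cells.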

How the data were processed

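Both libraries came as deposited UMI counts, not normalized, the output of Cell Ranger 7.0.1 according to what stands in their headers; the authors deposited 1 matrix per library. The submitters' processing notes also list STAR, the build GRCm38 (mm10) and Seurat 3.1.1 without roles, and the annotation release is not given in the sources used here. Gene positions came from GENCODE vM21, which held 32235 of the 32285 gene identifiers, and promoter windows from RefSeq. The members and the gene lists were chosen with earlier results of these data known, so the lists are descriptions.

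UMIs were summed over cells per library and divided by the group's total (CPM). Ratios are log2 of CPM plus 10, over genes with at least 20 UMIs in the groups compared, and list medians leave the 7 defining genes out. Intervals are exact at 95%: Poisson for levels, Clopper-Pearson for shares and conditional binomial for ratios. Thinning drew 2000 UMIs per cell, so no cell was lost. With 1 library per group no test was made. The counting was tested on simulated data with known folds. No doublet caller was used for the results, and as an alternative Scrublet called 0.604% and 2.61% of barcodes, under the expected 14.6% and 15.3%, so doublets remain.

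Named genes were the listed genes, the 15 highest and 10 lowest by the lesser of both libraries' ratios, and the 10 highest and 10 lowest of KO over WT, each with at least 50 UMIs. These rankings left out defining, mitochondrial, ribosomal, haemoglobin, Y-linked and Xist, antigen receptor, predicted and other cell types' marker genes. Some genes that these rules name are not reported here. Alternatives changed the pseudocount, filter, UMI, mitochondrial, identity and score limits, reference cells, depth, scaling, cell weights and score range. A further pair, leaving out cells with other types' markers and each gene's highest cell, were chosen after seeing the data. Python 3.11.15, numpy 2.4.6, scipy 1.17.1, pandas 2.3.3 and scanpy 1.11.5 were used.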

Additional observations from a re-analysis of the deposited data

Results flagged for a closer look

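Neutrophil genes stood on opposite sides in the 2 libraries. S100a8, a calcium-binding protein of neutrophils, had a log2 ratio of interferon-responsive over other microglia of -1.54 in WT and 2.07 in KO, and its partner S100a9 one of -1.19 and 2.13. For Retnlg the values were -1.91 and 2.92, and for Lcn2 -1.80 and 1.04. With 1 library per group the difference between the libraries was not tested. In the KO interferon-responsive cells 1 cell held 22.3% of the S100a8 UMIs and 36.5% of those of Lcn2, and 11 of 517 cells had 0.2% or more of their UMIs from neutrophil markers.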

How the results depend on the processing

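No paired analysis was possible because each group is 1 library. Over the alternatives, 75 of 122 values of counts stayed within 1.5 times the reported count and 47 did not, 620 of 715 list medians and 645 of 980 values of named genes moved by less than their counting interval, and 1 list median and 12 gene values changed sign. The effectors stayed higher in interferon-responsive cells in both libraries under every alternative run. Counts of genes past 2-fold depended most on the pseudocount. They are given in the order WT higher and lower than other microglia, KO higher and lower, KO over WT higher and lower in interferon-responsive cells, then in other microglia. At 1 CPM they were 905, 1339, 204, 48, 603, 325, 89 and 41, with effector medians of 2.02 (WT) and 0.93 (KO over WT, other microglia). At 50 CPM they were 63, 3, 11, 0, 5, 6, 6 and 0, with effector medians of 0.89 (WT), 0.30 (KO) and 0.30 (KO over WT, other microglia). A score of at least 0.2% left 30 WT and 72 KO cells, the first 6 counts were 362, 251, 184, 18, 167 and 142, the effector medians 2.05 and 1.00, and Ctla2a turned to 0.23. Against other microglia without a defining UMI the KO counts were 104 and 13 and the effector median 0.87, and KO over WT in other microglia gave 35 and 5. An identity of at least 0.4% left 46 WT cells, with 67 lower in WT, 22 and 1 in KO, 102 higher in KO over WT and 5 lower in other microglia, and turned Gpr141 in WT to -0.27 and Cxcl13 to 1.12. Thinning gave 368 and 624 in WT and 358 and 136 for KO over WT, and turned Ctla2a to 0.039. Setting the median to 0 gave 2 lower in KO, and the mean over cells 49 lower in WT. Cells scoring 0.1% to under 0.2% alone gave 139 higher in KO over WT, and turned the GTPases to 0.017, Myo10 to 0.26, Cxcl13 to 1.65 and Sema3c to 0.69. Without cells carrying other types' markers KO had 31 and 0, and Lcn2 turned to -0.15. Without each gene's highest cell WT had 104 and 77 and KO over WT 74 and 8, and Cxcl2 in WT turned to -0.45, Myo10 to 0.014, Cxcl13 to 0.80 and Sema3c to 0.14. The cause was not tested, save that a higher pseudocount by construction shrinks ratios of low genes and a stricter cut leaves fewer cells. With 691008 UMIs in the WT cells, 1 UMI is 1.45 CPM, which limits values of genes under about 10 CPM there.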

Other observations

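Some lists that were not drawn up for the interferon pathway held single genes that differed between interferon-responsive and other microglia. They are given here with the other microglia first. Whether interferon induces these genes was not tested. Il1b, the cytokine interleukin-1 beta, was at 68.7 and 44.9 CPM in other and interferon-responsive WT microglia and at 31.4 and 85.9 CPM in KO. Tnfsf10 (TRAIL), a ligand that triggers apoptosis, was at 7.40 and 40.5 CPM in WT and 12.2 and 23.8 CPM in KO. Among inhibitory receptors, Lilrb4a was at 18.7 and 53.5 CPM in WT and 14.2 and 34.4 CPM in KO. Cd274 (PD-L1), the ligand of PD-1, was at 27.7 and 57.9 CPM in WT and 27.1 and 51.3 CPM in KO. Fcgr4, an activating receptor for IgG, was at 13.5 and 33.3 CPM in WT and 18.9 and 31.2 CPM in KO. C4b, a complement component, was at 10.9 and 46.3 CPM in WT and 15.9 and 19.0 CPM in KO. Il1b thus stood lower in the WT interferon-responsive cells and higher in the KO ones. The neutrophil genes S100a8, S100a9, Retnlg and Lcn2 lay on the same sides. The part of cells with neutrophil markers in the Il1b values was not tested. The 5 genes besides Il1b were at least 25% higher in WT on the scale of CPM plus 10, and all of them but C4b were so in KO.

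Lyz2, lysozyme of myeloid cells, was at 614 and 880 CPM in WT and 563 and 815 CPM in KO, and 1 WT cell held 28.6% of the WT UMIs. Genes of the cell cycle had medians of -0.13 in WT, 0.04 with genes at 0 set to their bound, and 0.04 in KO. Genes of the CD200 receptor pathway had medians of -0.03 and 0.03. These values were not tested.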
